A study of Mus musculus with 8 samples.

Results

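The Notch pathway was followed through 10 genes in mouse forepaw skin: the ligand genes Jag1, Jag2 and Dll1, the receptor genes Notch1, Notch2 and Notch3, the DNA-binding gene Rbpj, and the target genes Hes1, Hey1 and Heyl. They were chosen by name, as the array probe sets annotated to 1 of these symbols, and all 10 were found among 30702 genes tested, each with 1 probe set. The skin came from 8 C57Bl/6 mice aged 8 weeks, 1 array per mouse. The 4 Krt16 null mice (2 males, 2 females) carry a germline allele in which bacterial LacZ stands in place of the Krt16 coding sequence, and their skin was labelled as lesion. The 4 wild-type (WT) littermates (2 males, 2 females) had skin labelled as normal; the effect of genotype cannot be told apart from that of the lesion. Krt16 is a keratin gene of the type I class, prominent in footpad epidermis, and the study asks how gene expression in null paw lesions compares with WT paw skin.

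Notch receptors are cell surface proteins that signal between touching cells. A Jagged or Delta ligand on 1 cell pulls on a Notch receptor on its neighbour, the ADAM10 or ADAM17 protease cuts the receptor outside the membrane, and the gamma-secretase complex then cuts it within the membrane. The freed intracellular part enters the nucleus, joins RBPJ and a Mastermind protein, and switches on genes of the HES and HEY families of repressors. In the epidermis, Notch signalling is known for driving keratinocytes out of the basal layer into differentiation and for restraining their growth. In vessels, Notch3 and Heyl are known from mural cells, the pericytes and smooth muscle cells around the endothelium.

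Values are log2 signals made by robust multi-array average (RMA), with means ± SD over n = 4 mice in each genotype. Differences are null minus WT from limma, with sex as a covariate. A gene was called higher or lower at a Benjamini-Hochberg adjusted p under 0.05 over all 30702 genes, and intervals are 95% confidence intervals from the same fit. All 10 genes lay above background: their signals ran from 5.16 to 9.04, and the array medians of the negative control probe sets from 4.26 to 4.46. Signals of different probe sets have no common scale, so levels are compared only within a gene.

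The libraries were checked first. Krt16 gave 8.48 and 8.20 in male WT skin, 7.05 and 9.66 in female WT skin, and 6.83 to 6.99 in the 4 null arrays. The null arrays were all below the lowest WT array, female WT 1, but narrowly (6.99 against 7.05). Krt16 signal in null arrays also stayed above the negative control medians (4.26 to 4.46), and the reason was not tested. The Krt16 difference of -1.45 missed the threshold (adjusted p = 0.0615) and passed it under 5 of 21 alternatives, among them with same-numbered mice as pairs (adjusted p = 0.0285) and without female WT 1 (-1.98, adjusted p = 0.000775). Female WT 1 stood apart from the other WT arrays in a second respect. Its S100a8, a calprotectin subunit of neutrophils and stressed keratinocytes, was 8.70, against 3.25 to 5.21 in the other 3 WT arrays and 10.73 to 11.44 in null arrays. The values of Jag1 and Jag2 without this array are given below. Keratinocyte genes lay well above background, with means of 10.41 for the basal keratin gene Krt14 and 12.32 for the suprabasal keratin gene Krt10 in WT arrays. Skeletal muscle genes did so too, such as Atp2a1 (10.69) and Myh2 (10.34) in WT arrays, so the samples also held muscle RNA.

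Of the 10 Notch genes, Jag1 rose and Jag2 fell in null skin, while the other 8 did not pass the threshold. Over all genes tested 13.1% were called, 7.07% higher and 5.98% lower, so 2 calls among 10 genes is a share near that background. All genes tested include 13722 with WT means under the highest negative control median, and 0 of the 10 lay there. The median difference of the 10 genes was -0.04, beside 0.01 over all genes. Unadjusted p-values under 0.05 were found for 4 of the 10 and for 26.6% of all genes. Null and WT arrays did not overlap for 3 of the 10, against 18.9% of all genes: Jag1 and Notch3 were higher in every null array (10.1% of all genes) and Jag2 lower (8.76%).

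Because the pair of Jagged ligand genes moved in opposite directions, the 250 bases before their start sites are shown, from RefSeq on build GRCm38.p6. RefSeq promoters matched 7 of the 10 genes, all but Hes1, Hey1 and Heyl. Jag1 is read from chr2:137116521-137116770 and Jag2 from chr12:112929496-112929745, both on the minus strand, 5′ to 3′ up to the base before the start site. Capitals mark matches to GGGCGG, the GC box bound by Sp1-type factors, on either strand; both windows were searched for 4 further motifs, and no other letters are in capitals.
Jag1: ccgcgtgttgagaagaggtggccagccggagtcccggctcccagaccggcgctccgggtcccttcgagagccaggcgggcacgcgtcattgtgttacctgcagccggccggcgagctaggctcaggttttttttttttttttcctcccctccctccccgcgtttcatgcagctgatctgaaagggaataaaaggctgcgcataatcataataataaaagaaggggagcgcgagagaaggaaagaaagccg
Jag2: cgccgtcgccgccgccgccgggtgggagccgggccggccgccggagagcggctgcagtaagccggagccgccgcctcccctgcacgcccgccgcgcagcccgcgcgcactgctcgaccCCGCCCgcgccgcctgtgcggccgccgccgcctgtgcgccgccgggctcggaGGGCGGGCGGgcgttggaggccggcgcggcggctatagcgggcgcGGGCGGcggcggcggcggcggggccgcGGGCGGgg
The Jag2 window was 87.2% G or C and held 5 GC boxes, 2 of them overlapping, while the Jag1 window was 57.2% G or C and held none. The median over all 32851 promoter windows of this length was 52.4%, and 32.7% of them held GGGCGG. Neither window held TGGGAA, the core bound by RBPJ (21.6% of all windows), CACNAG, the N-box bound by HES repressors (36.7%), TGANTCA of AP-1 (6.75%) or TATAAA of the TATA box (12.4%), on either strand. GC boxes were not particular to Jag2, since Notch1, Notch2 and Notch3 held 5, 5 and 4. Rbpj held TGGGAA, counted on either strand, in both of its listed windows. Its windows overlap, and the match in the second is also a match in the first. All motif counts here are matches of letters, not measured binding sites.

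Among the ligand genes, Jag1 encodes Jagged1, a membrane-bound Notch ligand. Its signal was 8.59 and 8.34 in male WT mice, 8.34 and 8.40 in female WT mice, 8.84 and 8.86 in male null mice, and 8.91 and 9.04 in female null mice. All 4 null arrays lay above all 4 WT arrays, and the female null arrays were the highest. The mean went from 8.42 ± 0.12 in WT to 8.91 ± 0.09 in null skin, a difference of 0.50 (SE 0.08, interval 0.33 to 0.67, limma adjusted p = 0.00375), or 1.41-fold. The difference was 0.46 without female WT 1 (adjusted p = 0.00615).

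Jag2 encodes Jagged2, a second ligand of the Jagged type. Its signal was 8.43 and 8.55 in male WT mice, 8.37 and 8.29 in female WT mice, 8.08 and 8.25 in male null mice, and 8.06 and 8.09 in female null mice. The groups did not overlap, although male null 2 at 8.25 came within reach of female WT 2 at 8.29. The mean went from 8.41 ± 0.11 to 8.12 ± 0.09, a difference of -0.29 (SE 0.06, interval -0.43 to -0.16, limma adjusted p = 0.0143). It was -0.28 without female WT 1 (adjusted p = 0.0231), and it was no longer called without female null 1 (-0.29, adjusted p = 0.0502).

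Dll1, which encodes the ligand Delta-like 1, differed by -0.06 (interval -0.21 to 0.09, adjusted p = 0.664). Its WT arrays ran from 5.78 to 5.97 and its null arrays from 5.73 to 5.92, so the groups overlapped over most of their range. The other ligand genes on the pathway list, Dll3, Dll4, Dlk1 and Dlk2, were not called either.

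**Figure D1:**
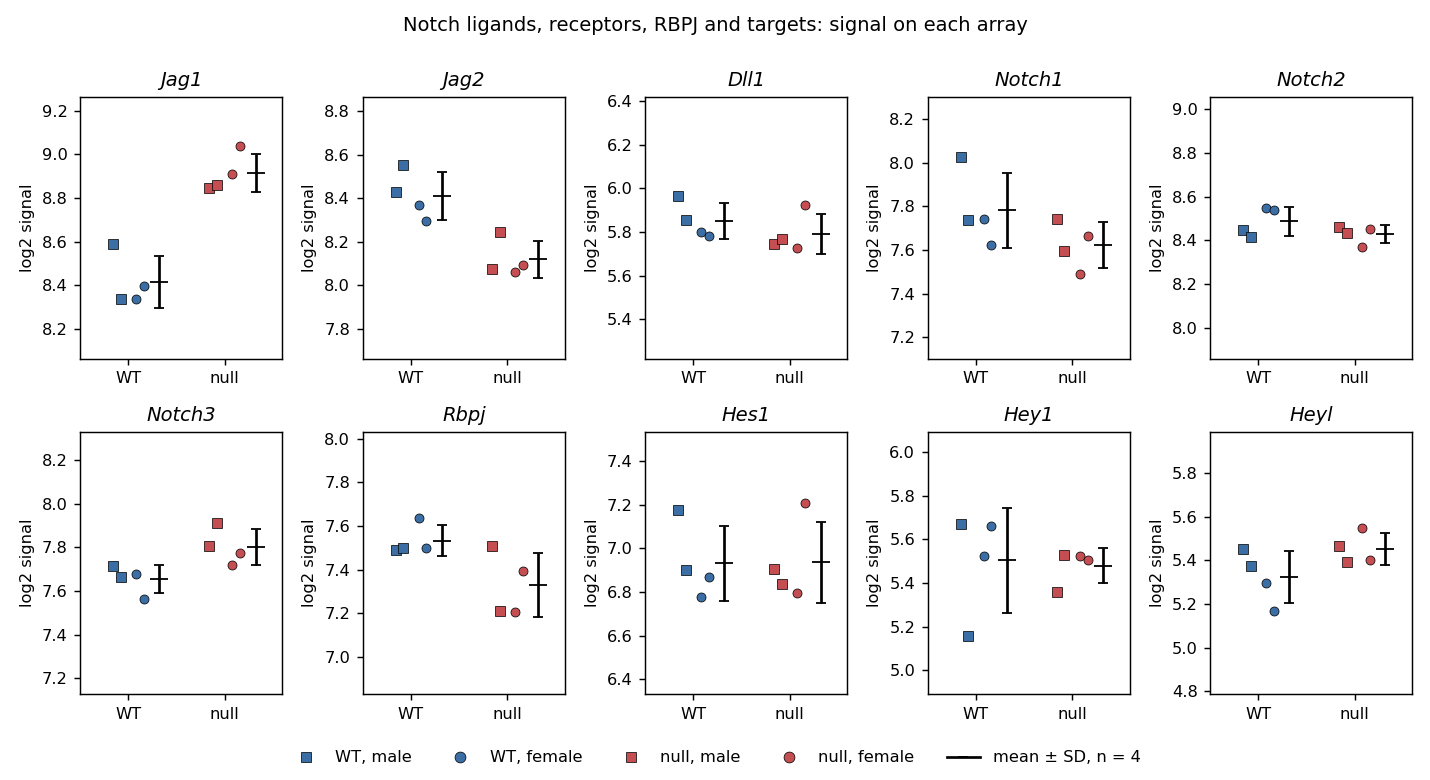
Log2 RMA signal (vertical axis, 1.2 log2 units in every panel) of the 10 Notch genes in each mouse, by genotype, with squares for males and circles for females; black marks show the mean ± SD of 4 mice. Jag1 is higher and Jag2 lower in all null arrays, Notch3 is separated by a narrow gap, and the other 7 genes overlap.

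None of the 3 receptor genes passed the threshold. Notch3 was 7.71 and 7.66 in male WT, 7.68 and 7.56 in female WT, 7.81 and 7.91 in male null and 7.72 and 7.77 in female null mice. Its null arrays all lay above its WT arrays, but female null 1 at 7.717 and male WT 1 at 7.715 nearly met. The difference of 0.15 (interval 0.03 to 0.27) had an unadjusted limma p of 0.0225 and an adjusted p of 0.113. Notch1, the main receptor of suprabasal keratinocyte differentiation, differed by -0.16 (interval -0.34 to 0.02, adjusted p = 0.254). The highest Notch1 value was male WT 1 at 8.02 and the lowest female null 1 at 7.49, with the remaining arrays between 7.60 and 7.74. Notch2 differed by -0.06 (interval -0.18 to 0.07, adjusted p = 0.588), with WT arrays from 8.42 to 8.55 and null arrays from 8.37 to 8.46. Notch4, an endothelial receptor gene on the pathway list, differed by 0.08 (adjusted p = 0.452).

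Rbpj encodes the DNA-binding protein on which the cut receptor assembles. Its signal was 7.49 and 7.50 in male WT, 7.64 and 7.50 in female WT, 7.51 and 7.21 in male null and 7.21 and 7.39 in female null mice. Only male null 1, at 7.51, reached into the WT range. The difference was -0.20 (interval -0.38 to -0.02), with an unadjusted p of 0.032 and an adjusted p of 0.14 in limma. Without male null 1 it was -0.28 and called (adjusted p = 0.0387). With any other single array left out it was -0.23 to -0.15 and not called (adjusted p 0.178 to 0.344).

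None of the target genes differed detectably. Hes1, a HES repressor gene induced by Notch in many tissues, had means of 6.93 ± 0.17 in WT and 6.94 ± 0.19 in null skin (difference 0.00, interval -0.25 to 0.26, adjusted p = 0.989). Its highest arrays were male WT 1 at 7.17 and female null 2 at 7.21, and the other 6 ran from 6.78 to 6.91. Hey1, a HEY repressor gene, differed by -0.02 (interval -0.26 to 0.22, adjusted p = 0.928). Hey1 varied most among WT mice, from 5.16 in male WT 2 to 5.67 in male WT 1. Heyl, the third HEY-type gene, differed by 0.13 (interval -0.03 to 0.29, adjusted p = 0.306), with WT arrays from 5.17 to 5.45 and null arrays from 5.39 to 5.55. These intervals leave room for changes of up to 0.26 on the log2 scale in Hes1 and Hey1 and 0.29 upward in Heyl.

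The remaining pathway was read from a list of 62 genes that includes the 10, of which 59 were measured. In null skin 3 were called higher and 6 lower, beside backgrounds of 7.07% and 5.98% over all genes. Differences were small: their median was -0.05, against 0.01 over all genes, and the median size of 0.09 was close to the 0.08 of all genes. Negative differences numbered 38 and positive ones 21. At an unadjusted limma p under 0.05, 13 were lower and 5 higher, where 26.6% of all genes had such a p. All null arrays lay below all WT arrays for 11 genes and above them for 4, beside 8.76% and 10.1% of all genes. No test of the list was run. The count of 6 lower genes moved with the processing and with single mice. It was 10 after repeated quantile normalization, 2 without male WT 1, 2 without male WT 2, 1 without male null 2, 1 without female null 1 and 3 without female null 2.

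**Figure D2:**
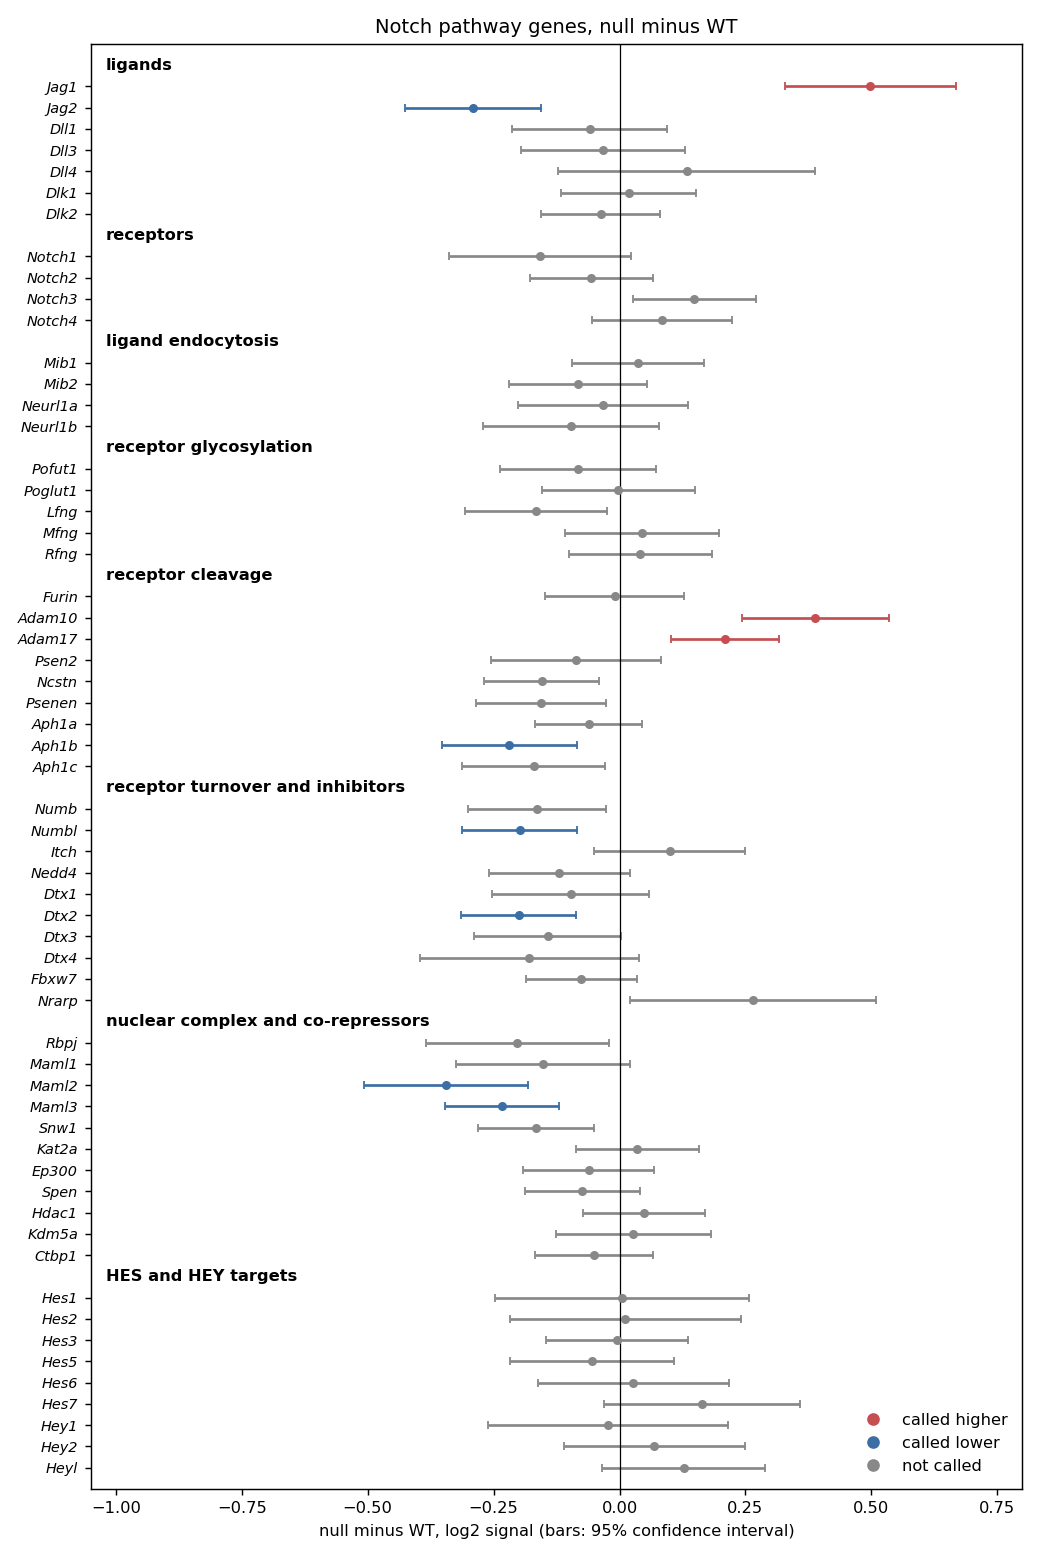
Null minus WT difference in log2 signal (horizontal axis) of the 59 measured Notch pathway genes, grouped by role; points are limma estimates from 4 null and 4 WT mice and bars are 95% confidence intervals. Jag1, Adam10 and Adam17 are called higher, and Jag2, Aph1b, Numbl, Dtx2, Maml2 and Maml3 lower, while no HES or HEY gene is called.

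In the receptor cleavage group, 2 of 9 measured genes rose and 1 fell, beside 7.07% and 5.98% of all genes. Adam10 encodes the protease that makes the ligand-dependent cut of Notch. It was 8.20 and 8.38 in male WT, 8.24 and 8.39 in female WT, 8.64 and 8.78 in male null and 8.67 and 8.68 in female null mice. The groups were clearly separated, with a difference of 0.39 (SE 0.06, limma adjusted p = 0.00604). Adam17, which encodes the related protease that also sheds EGFR ligands and tumour necrosis factor, varied little within a genotype. Its WT arrays lay between 6.86 and 6.90 and its null arrays between 7.07 and 7.13 (difference 0.21, SE 0.05, adjusted p = 0.0211). Leaving out a single array took the Adam17 call away in 5 of 8 cases (either male WT array, male null 2, or either female null array; adjusted p 0.0583 to 0.0776), while the difference stayed between 0.20 and 0.21. Aph1b, of a subunit of the gamma-secretase complex, went from 5.90 ± 0.08 to 5.68 ± 0.07 (difference -0.22, adjusted p = 0.0417), and lost its call without any 1 of the 8 arrays (adjusted p 0.0527 to 0.127). The other subunit genes gave -0.15 for Ncstn (adjusted p = 0.0802), -0.16 for Psenen, -0.17 for Aph1c, -0.09 for Psen2 and -0.06 for Aph1a, none of them called.

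In the nuclear group, 2 of 11 measured genes fell, beside 5.98% of all genes. Both were of the Mastermind type, whose proteins bind the RBPJ and Notch complex and recruit activators. Maml2 went from 6.69 ± 0.13 to 6.34 ± 0.11 (difference -0.34, SE 0.07, limma adjusted p = 0.0152), and Maml3 from 7.30 ± 0.05 to 7.07 ± 0.06 (-0.23, SE 0.05, adjusted p = 0.0165). Neither overlapped between genotypes: Maml2 had its WT minimum at 6.59 and its null maximum at 6.48, and Maml3 at 7.25 and 7.14. Maml1 gave -0.15 and was not called (adjusted p = 0.251). Maml2 missed the threshold without male WT 1 or male null 2 (adjusted p 0.0531 and 0.0575). Maml3 missed it without male WT 2, male null 2 or female null 1 (adjusted p 0.0547 to 0.0631).

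Of 10 genes of receptor turnover and inhibition, 2 fell, beside 5.98% of all genes. Dtx2, of the Deltex family of ubiquitin ligases that act on Notch, went from 6.63 ± 0.04 to 6.43 ± 0.04 (-0.20, adjusted p = 0.0327). Numbl, a relative of the Notch antagonist gene Numb, went from 6.71 ± 0.05 to 6.51 ± 0.02 (-0.20, adjusted p = 0.0334), and Numb itself gave -0.16 (adjusted p = 0.117). Dtx2 lost its call without any 1 array other than male null 1 or female WT 1 (adjusted p 0.0627 to 0.11), and Numbl without any other than female WT 2 (adjusted p 0.0645 to 0.105). Nrarp, a feedback inhibitor gene that is itself a Notch target, gave 0.27 (interval 0.02 to 0.51, adjusted p = 0.151) with overlapping groups.

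**Figure D3:**
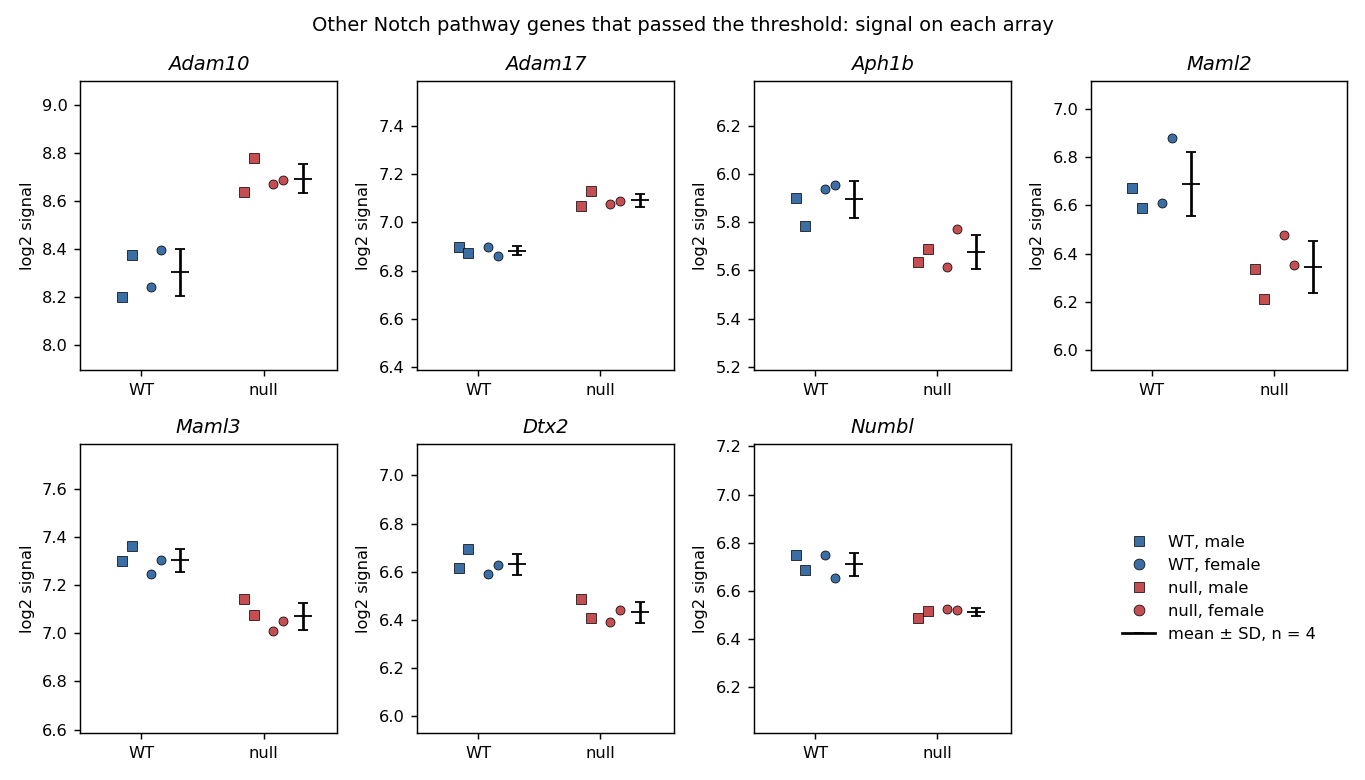
Log2 RMA signal (vertical axis, 1.2 log2 units in every panel) in each mouse of the 7 pathway genes outside the set of 10 that passed the threshold; squares are males, circles females, and black marks the mean ± SD of 4 mice. Adam10 and Adam17 are higher in all null arrays, and Aph1b, Maml2, Maml3, Dtx2 and Numbl lower.

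No gene was called among 4 genes of ligand endocytosis, 5 of receptor glycosylation and 9 HES and HEY genes, with 0, 1 and 0 at an unadjusted limma p under 0.05. The smallest p in these groups belonged to Mib2, a ubiquitin ligase gene for ligands (-0.08, adjusted p = 0.459), to Lfng, a Fringe glycosyltransferase gene (-0.17, adjusted p = 0.125), and to Hes7 (0.16, adjusted p = 0.274). The median of the HES and HEY genes was 0.01, within a range of -0.05 to 0.16. Of these 9, Hes3 and Hey2 had means under the lowest negative control median in both genotypes, so a change in them could not be read at this signal.

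A further list held 13 genes that act with or downstream of Notch in keratinocytes, of which 11 were measured, 1 called higher and 3 lower. Over all genes, 7.07% were called higher and 5.98% lower. The list was not sorted by whether Notch raises or lowers a gene, so its counts do not give a direction of Notch activity. Ivl, the cornified envelope gene involucrin, rose by 0.46 (SE 0.09, limma adjusted p = 0.0113), while its groups overlapped: male WT 2 at 9.27 lay above both female null arrays, and the call needed the sex covariate (adjusted p = 0.0956 without it). Lor, the envelope gene loricrin, fell by 0.35 (adjusted p = 0.0346). Cdkn1a, the cell cycle inhibitor gene p21 that Notch1 induces in keratinocytes, fell by 0.25 (adjusted p = 0.0391). It was not called with same-numbered mice as pairs (adjusted p = 0.0569) or without the sex covariate (adjusted p = 0.0546). Nor was it called after median centring (adjusted p = 0.0902) or among all non-control probe sets (adjusted p = 0.0558). Gli2, a hedgehog effector gene, fell by 0.30 (adjusted p = 0.00828). Krt1 and Krt10, the suprabasal keratins, gave 0.08 and -0.08, and Trp63, the basal regulator p63, gave -0.09, none called. Lor missed the threshold when any array numbered 2 was left out (adjusted p 0.0718 to 0.114). Cdkn1a missed it without any 1 array other than male WT 1 or male null 1 (adjusted p 0.0604 to 0.122).

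The genotype difference of the 10 Notch genes was next read in each sex. Jag1 gave 0.39 in males and 0.61 in females, and Jag2 gave -0.33 and -0.25. For Jag1 the female minus male difference of these effects was 0.22 (SE 0.14, unadjusted p = 0.166, limma adjusted p = 0.974). Hes1 gave -0.17 in males and 0.18 in females, and Heyl 0.01 and 0.24, but neither interaction passed (adjusted p = 0.974 for both). In limma 0 of the 10 genes had a called interaction and 0 an unadjusted p under 0.05, where 0.00651% and 4.26% of all genes did. Sex itself gave the same 2 counts of 0 among the 10 genes, where 0.0163% of all genes were called and 5.01% had an unadjusted p under 0.05. With 2 mice per sex and genotype, only large sex differences could have been detected.

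**Figure D4:**
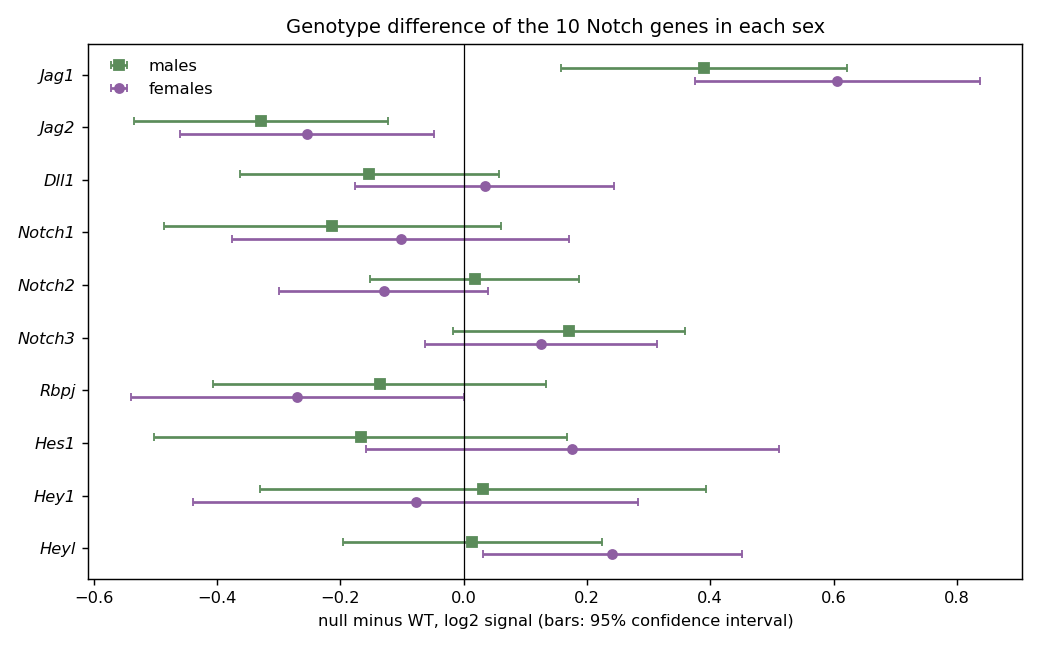
Null minus WT difference in log2 signal (horizontal axis) of the 10 Notch genes in males (squares) and females (circles), each from 2 null and 2 WT mice in a fit of 4 group means; bars are 95% confidence intervals. Jag1 lies above 0 and Jag2 below 0 in both sexes, while the estimates of Hes1, Dll1, Notch2 and Hey1 differ in sign between sexes with intervals that span 0.

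Paw skin is a mixture of cells, and in such bulk samples fewer cells of a type cannot be told from less RNA per cell. Marker genes of other cell types were therefore read in the same arrays. Their counts, here and in the next paragraph, stand beside 7.07% of all genes called higher and 5.98% called lower. The mean of 10 skeletal muscle markers ran from 8.70 to 9.59 in WT and 7.99 to 8.56 in null arrays; 8 of the 10 fell, among them Ckm (-0.95) and Pvalb (-0.95). Of 8 basal keratinocyte markers 4 fell, led by Col17a1 (-0.61) and Krt15 (-0.56), while the other 4 were not called, the keratins Krt14 and Krt5 at 0.20 and 0.11 and the integrins Itga6 and Itgb4 at -0.03 and -0.09. The basal list means overlapped, with ranges of 9.02 to 9.18 in WT and 8.81 to 9.04 in null arrays. Of 11 endothelial markers 2 rose, Vwf and Pecam1 (both 0.27), with overlapping list means of 5.73 to 6.04 and 5.94 to 6.12. The other 9 endothelial markers were not called, with differences from -0.20 (Tek) to 0.27 (Kdr). Of 10 mural markers 1 rose, Mcam (0.48), and 3 fell, among them Abcc9 (-0.77) and Cspg4 (-0.53), with overlapping list means of 6.67 to 7.11 and 6.88 to 6.89. Of 7 Langerhans and dendritic cell genes 5 rose, led by Itgax (0.79) and H2-Ab1 (0.65), with list means of 5.26 to 5.35 and 5.57 to 5.79. Of these 7 genes, 3 had WT means and 2 had null means under the highest negative control median (4.46). Itgax was among them in WT, with a mean of 4.27. Muscle and Langerhans list means separated the genotypes as Jag1 and Jag2 did. The Schwann cell list means did too (6.51 to 6.61 in WT, 6.38 to 6.48 in null arrays). Of its 5 measured markers, however, only Pmp22 (-0.47) was called. The other 4 gave -0.16 for Cdh19, -0.05 for Egr2, -0.04 for Mbp and 0.08 for Sox10. The part of muscle, Langerhans and Schwann cells in the Notch gene differences was not tested.

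Among the remaining lists, Krt2 fell (-0.60) among 10 suprabasal markers. The other 9 were not called, with differences from -0.32 (Calml3) to 0.17 (Sbsn). Dpt (-0.86) and Dcn (-0.83) fell among 7 fibroblast markers. The other 5 were not called, from -0.27 (Lum) to 0.10 (Col1a1). Pmp22 (-0.47) fell among 5 Schwann cell markers. Cd163 (-0.97) and C1qc (-0.59) fell among 8 macrophage markers, whose median was -0.40. Cd3g rose (0.20) among 6 T cell markers, all of them under the highest negative control median in both genotypes. S100a8 (5.69) and S100a9 (5.40) led 3 rises among 8 neutrophil markers, with female WT 1 the highest WT array for S100a8. The granule genes Mpo and Elane were not called. Female WT 1 was their highest array, at 5.35 and 4.93, and the other 7 arrays ran from 4.09 to 4.50 for Mpo and from 3.93 to 4.27 for Elane, near or under the negative control medians. No eccrine sweat gland marker was called, the smallest p being that of Krt8 (0.37, adjusted p = 0.154).

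**Figure D5:**
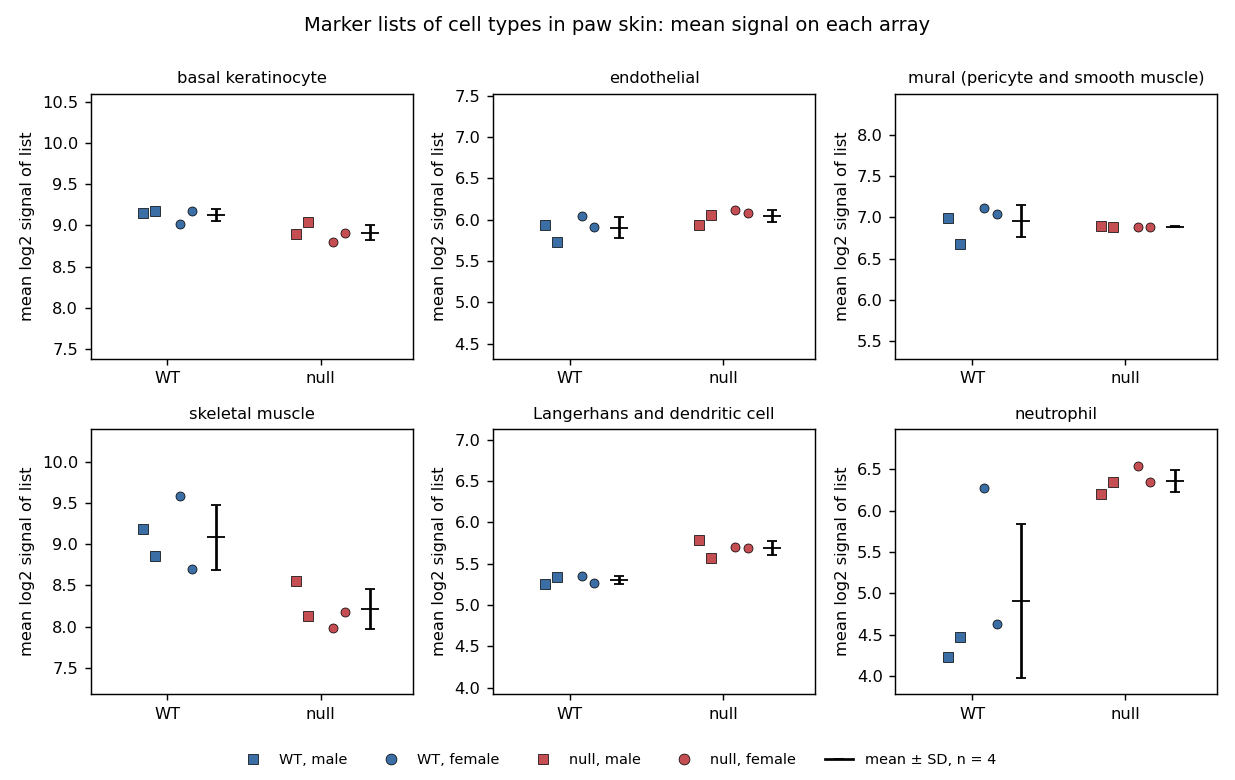
Mean log2 RMA signal (vertical axis, 3.2 log2 units in every panel) of 6 cell type marker lists in each mouse; squares are males, circles females, and black marks the mean ± SD of 4 mice. Skeletal muscle means are lower and Langerhans and dendritic cell means higher in all null arrays, and female WT 1 lies near the null arrays for the neutrophil list, which holds S100a8 and S100a9.

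The array pattern of each called ligand gene was compared with 165 other genes of the lists over the 8 arrays, as a description in which the genotype difference is part of every correlation. Jag1 was most like Adam17 (Pearson r = 0.93), followed by the dendritic cell gene Flt3 (0.90) and the T cell gene Cd3g (0.88). Flt3 and Cd3g had WT and null means below the median of the negative controls. Jag2 was most like the suprabasal keratin gene Krt2 (0.89), the hemidesmosome gene Col17a1 (0.89) and Maml3 (0.88). All 6 were themselves called between genotypes, in the direction of the ligand gene they resemble.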

How the data were processed

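Total RNA of 8 forepaw skin samples was biotin-labelled with the Affymetrix WT PLUS kit, 1 array per mouse. Each probe set has 1 deposited log2 value per array, produced by the authors using Partek and the RMA method, per the submitters' processing notes; versions and settings were not given in the sources used here. Values ran from 1.36 to 13.6. Of 72688 probe sets, 6732 controls were left out. GEO's platform annotation, with symbols updated through RefSeq gene IDs and synonyms (GRCm38.p6), named 1 gene for each of 31258 probe sets, or 30702 genes in all; 441 genes had several, of which the brightest was used. Arrays have no read depth; their number limits the precision.

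The genotype difference of each gene came from limma 3.58.1 (lmFit and trended eBayes; R 4.3.3), adjusting for sex, with 5 residual degrees of freedom; the procedure was tested on simulated data. Effects within each sex and their difference came from a fit of 4 group means. Same-numbered mice of 1 sex were checked as pairs, since the labels number mice within sex and genotype: after removal of group means, the correlation across genes was 0.316 for the male pair and 0.115 for the female pair, so a fit with 4 pairs as a replicate block was run as an alternative. The labels do not say that a number marks a litter or day. Further alternatives dropped the sex term or the trend, repeated the quantile normalization, centred arrays on medians, removed dim genes, averaged probe sets per gene, kept every non-control probe set, or used a robust prior or array weights; others were each array left out in turn, and each sex alone.

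The 10 genes, the lists and the tests were chosen with earlier results of these data known. The text names Krt16, all 10 genes, every called gene of the pathway and keratinocyte lists (or the smallest p of a role without calls), up to 2 called rises and falls of each marker list (or its smallest p), and the 3 list genes most correlated with each called ligand gene. Genes outside this rule (Dll3, Dll4, Dlk1, Dlk2, Notch4, Nrarp, Numb, Maml1, the gamma-secretase subunits, Krt1, Krt10, Trp63, Krt14, Krt5, Itga6, Itgb4, Hes3, Hey2, Mpo, Elane, Atp2a1, Myh2, Cdh19, Egr2, Mbp, Sox10, Tek, Kdr, Calml3, Sbsn, Lum, Col1a1 and those under other observations) were named after their values were seen. Tables were prepared in Python 3.11.15 (pandas 2.3.3, numpy 2.4.6) and plots drawn with matplotlib 3.10.9.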

Additional observations from a re-analysis of the deposited data

Results flagged for a closer look

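Among 44 sets of 4 arrays (the WT and the null arrays of 22 named genes), 3 held 1 array far from the other 3 by Dixon's test; chance gives about 1 in 20 such sets. Jag2 in male null 2 was 8.25, above the 8.06 to 8.09 of the other null arrays. Hey1 in male null 1 was 5.36, below the 5.51 to 5.53 of the other null arrays. Rbpj in female WT 1 was 7.64, above the 7.49 to 7.50 of the other WT arrays.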

How the results depend on the processing

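Jag1 kept its direction and its call under 20 of 21 alternatives, with differences of 0.39 to 0.61; in males alone it was not called (adjusted p = 0.0936). Jag2 kept its direction under all 21 (-0.35 to -0.25) and its call under 18, all but the fits without female null 1, with males alone and with females alone. Each sex alone has 2 mice a group: of the 10 genes 0 were then higher in males, and 0 were lower in either sex. With single arrays left out, 0 to 2 of the 10 were lower, 0 without female null 1 and 2 without male null 1. Pathway genes called lower numbered 1 to 5 with single arrays left out, 10 after repeated quantile normalization, 3 among all non-control probe sets and 0 in either sex alone; those called higher numbered 0 in males and 1 in females. Of the keratinocyte list 0 were higher without the sex term or in either sex alone, and 0 lower in either sex alone; 1 to 3 were lower with single arrays left out. Over all genes, 2170 were higher and 1837 lower; single arrays left out gave 1209 to 2290 and 843 to 1864, males alone 493 and 189, females alone 497 and 427. The fewest came without male WT 1 (1311 and 1075), male null 2 (1209 and 849) and female null 1 (1230 and 843), with 1112 lower without female null 2. With the replicate block, Krt16 gained and Cdkn1a lost its call (adjusted p = 0.0285 and 0.0569), and the pairing changed no other call among the named genes tested this way; over all genes 2545 were higher and 2017 lower.

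Uncalled differences near 0 changed sign: Hes1 with array weights (-0.032), in males (-0.17) and with single arrays left out (-0.11 to 0.093); Hey1 with array weights (0.023), in males (0.031) and with single arrays left out (-0.14 to 0.068); Dll1 in females (0.034); and Notch2 in males (0.018). The causes were not tested. Interactions and sex differences stayed at 0 of 10 under all 17 alternatives run.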

Other observations

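The genes around the cleavage step of Notch were also read, in a list chosen after the values were seen. Of 11 partners and inhibitors of ADAM10 and ADAM17, 1 rose and 0 fell in limma, beside 7.07% and 5.98% of all genes. Timp1, a secreted metalloproteinase inhibitor gene, went from 5.31 ± 0.16 to 6.00 ± 0.27 (n = 4 each; difference 0.69, SE 0.13, adjusted p = 0.00911), with all null arrays above all WT arrays. Timp3, whose protein inhibits both proteases, gave -0.12 (adjusted p = 0.415). Rhbdf2, which encodes iRhom2, the carrier of ADAM17 to the cell surface, gave a difference of 0.00 (adjusted p = 0.98), and its relative Rhbdf1 gave -0.09 (adjusted p = 0.419). The 6 tetraspanin genes on the list, whose proteins escort ADAM10, gave -0.11 to 0.12, none called.

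Proteins outside the Jagged and Delta families have been described as Notch ligands or modulators. Measured values were read for 8 of their genes, again chosen after the values were seen. Of these 8, 1 rose and 2 fell, beside 7.07% and 5.98% of all genes. Ccn3, a matricellular gene once named Nov, went from 6.93 ± 0.49 to 5.68 ± 0.33 (difference -1.25, SE 0.24, limma adjusted p = 0.0114). Mfap5, of elastic microfibrils, fell by 0.74 (adjusted p = 0.00715), and Postn, the matrix gene periostin, rose by 0.97 (adjusted p = 0.0168). The other 5 genes were not called. Null and WT arrays did not overlap for 4 of the 8, Ccn3, Mfap5 and Postn among them, against 18.9% of all genes. The differences of these 3 were larger in size than that of any of the 10 Notch genes. Because the list was chosen with its values known, this ranking is not a test of the 2 lists against each other.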
